A study of Azumapecten farreri with 9 samples.

Results

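The lines named miR-1 and miR-133 were examined in hemocytes, the circulating immune cells of the Zhikong scallop (labelled Azumapecten farreri, in the series title Chlamys farreri). A line belonged to the set when its name held miR-1, miR-133, miR-206, miR-208 or miR-499 with no further digit after the number. This rule took 7 of the 417 lines of the deposited small RNA table, 2 of them named miR-1 and 5 named miR-133, and no line bore any of the other 3 numbers. Scallops had been injected with exosomes (membrane vesicles that cells release) labelled as LPS stimulating, LPS being lipopolysaccharide, a part of the outer membrane of Gram-negative bacteria, with normal exosomes, or with phosphate-buffered saline (PBS), and each of the 3 groups had 3 small RNA libraries. The labels give no age, strain, dose, time after injection or number of animals, and whether replicate libraries stem from different animals, pools or 1 RNA sample is not stated. The p-values of the group comparisons set group differences against the spread between libraries of a group, which may be only technical. All p-values therefore describe these libraries only. The values are the authors' normalized counts per line, and their totals ran from 4002817 to 6337019 per library.

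miRNAs are short RNAs that guide Argonaute proteins to messenger RNAs, which they recognise mainly through the seed, bases 2 to 8 counted from the 5′ end. miR-1 and miR-133 are best known from muscle. In mouse, miR-1 and miR-133 are made from shared primary transcripts in heart and skeletal muscle, where miR-1 promotes differentiation of muscle precursors and miR-133 their proliferation, and miR-206, miR-208 and miR-499 are further muscle miRNAs of vertebrates. In Drosophila, miR-1 is also a muscle miRNA. No miRNA that defines scallop hemocytes was available as a check of the labelled cell type, and the table measures no protein-coding marker.

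The sequences show how the 7 names relate, since several names were given to nearly the same RNA. They are printed as deposited, in DNA letters and 5′ to 3′, with the seed in capitals, and the last line is a predicted candidate that extends the miR-1 sequence.
mle-miR-1-3p_1ss21AT: tGGAATGTaaagaagtatgttt
aca-miR-1b-3p_R+1_1ss9TA: tGGAATGTaaagaagtatgtac
mle-miR-133-3p_2ss15TC19TC: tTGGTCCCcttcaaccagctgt
aca-miR-133a-3p_L-1R+3: tTGGTCCCcttcaaccagctgtat
chi-miR-133a-3p_L-1R+2: tTGGTCCCcttcaaccagctgtat
sme-miR-133b-3p_R+2: tTGGTCCCcatcaaccagcagt
ppc-miR-133-3p_L-1_1ss12CT: tTGGTCCCcttcaaccagcca
PC-3p-21776_44: tGGAATGTaaagaagtatgttta

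All 7 names carry the 3p arm, and the 7 lines held 6 distinct sequences of 21 to 24 bases, because the aca-miR-133a and chi-miR-133a lines share 1 sequence with identical values. These 2 lines are treated as 1 measurement listed under 2 names and are called the 24-base miR-133 below. Whether the deposited values divide reads between the 2 names was not tested, so the level of this form is given as deposited. Both miR-1 lines had the seed GGAATGT and all 5 miR-133 lines had the seed TGGTCCC. The miR-133 seed was found at bases 2 to 8 of no other line of the table, and the miR-1 seed in 1 further line, PC-3p-21776_44, which is the mle-miR-1 sequence plus 1 base at the 3′ end. The 2 seeds were thus held by 3 and 5 of the 417 lines, or 0.719% and 1.20%.

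The prefix of a name is the species of the matched miRBase entry (mle a sea slug, aca an anole lizard, chi the goat, sme a planarian, ppc a nematode), and the suffix records how the scallop sequence differs from it. Positions in the suffixes count from 1 at the 5′ end of the registered entry, with the registered base first. The suffixes record A21T for mle-miR-1, T15C and T19C for mle-miR-133, T9A for aca-miR-1b and C12T for ppc-miR-133, and all 5 changes lie outside the scallop seed. The L-1 in the aca-miR-133a, chi-miR-133a and ppc-miR-133 names marks a scallop sequence that starts 1 base inside the registered one, so its seed window is shifted by 1 base against those entries. For the same reason the C12T of ppc-miR-133 lies at base 11 of the scallop sequence. The names of the mle-miR-133 and sme-miR-133b lines record no change at the 5′ end. Against the most abundant line of its number, with positions along the scallop sequence and the base of that line first, aca-miR-1b differs by T21A and T22C. In the same way sme-miR-133b differs by T10A and T20A, and ppc-miR-133 by T20C and G21A. The 24-base miR-133 is the full mle-miR-133 sequence with 2 more bases at the 3′ end.

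The mle-miR-133-3p line (22 bases) dominated the set and was among the most abundant miRNAs of the hemocyte table. It ranked 4 by mean value among the 417 lines and 4 or 5 in each of the 9 libraries. It stood at 215898, 160681 and 136538 in the LPS exosome libraries, at 176435, 200768 and 227406 in the normal exosome libraries, and at 130324, 202811 and 174864 in the PBS libraries. The ranges of all 3 groups overlapped, with the lowest value in a PBS library and the highest in a normal exosome library. As a share of the summed signal the line held 3.68% ± 0.363, 3.48% ± 0.683 and 3.34% ± 0.260 with LPS exosomes, normal exosomes and PBS (SD, n = 3 each).

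**Figure D1:**
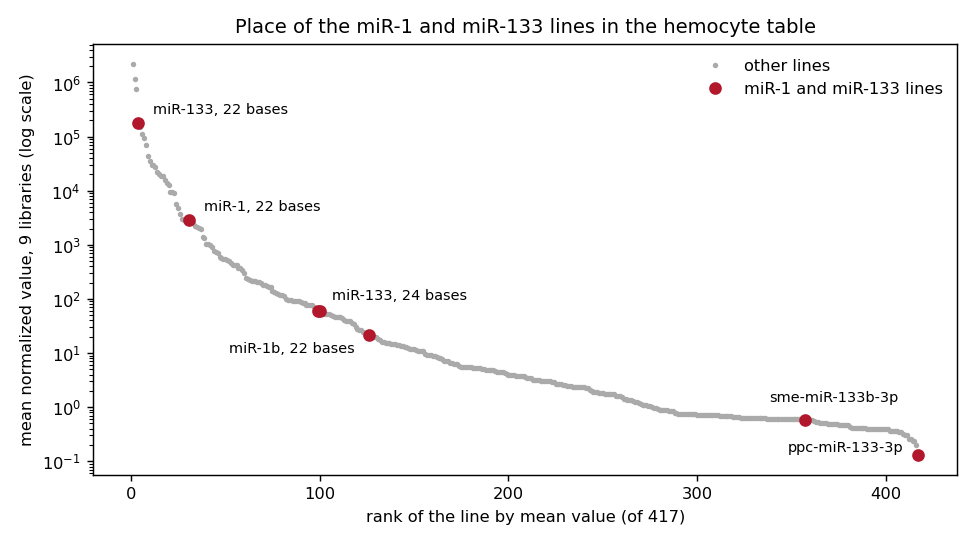
Mean normalized value over 9 libraries (log scale) of each of the 417 lines against its rank; red points are the 7 miR-1 and miR-133 lines, and the 2 names of the 24-base miR-133 lie side by side. The 22-base miR-133 is at rank 4 and miR-1 at 31, while the other lines of the set lie at or below rank 99.

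The mle-miR-1-3p line (22 bases) ranked 31 by mean value and between 26 and 37 in single libraries. It stood at 4507, 2139 and 1532 in the LPS exosome libraries, at 2654, 3290 and 2660 in the normal exosome libraries, and at 2142, 3311 and 3175 in the PBS libraries. The LPS exosome group held both the highest and the lowest of the 9 values, and the other groups lay inside its range. Its share of the signal was 0.0569% ± 0.0251 with LPS exosomes, 0.0493% ± 0.00778 with normal exosomes and 0.0567% ± 0.00672 with PBS (SD, n = 3 each).

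Within the LPS exosome group the spread of miR-1 was wide. Its coefficient of variation there was 57.7%, against a median of 20.4% over the 100 distinct tested sequences with a mean of 50 or more, of which 4 were more variable. In the normal exosome and PBS groups its coefficient of variation was 12.8% and 22.2%, near or under the medians of 22.1% and 24.6% over the same sequences. The 22-base miR-133 varied by 23.8%, 12.7% and 21.6% in the LPS exosome, normal exosome and PBS groups. LPS exosome replicate 1 set the wide spread of miR-1, both by value and by share (0.0854% of its signal, against 0.0383% to 0.0633% in the other 8 libraries).

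The 24-base miR-133 was far lower than the 22-base form, whose sequence it extends. It stood at 60.4, 72.7 and 85.6 in the LPS exosome libraries, at 58.5, 67.2 and 34.0 in the normal exosome libraries, and at 83.3, 36.9 and 45.2 in the PBS libraries. The PBS libraries spanned most of the range, and 2 of them lay below every LPS exosome library. In each group this form made up between 0.000905% and 0.00163% of the signal on average.

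The aca-miR-1b-3p line, which differs from the abundant miR-1 in its last 2 bases, was low and uneven. It was listed at 0 in LPS exosome replicate 1 and stood at 13.6 and 26.1 in the other LPS exosome libraries. The normal exosome libraries had 15.9, 5.56 and 11.9. PBS replicate 1 was also listed at 0, while the other PBS libraries had 95.9 and 26.3. The line was thus above 0 in 7 of 9 libraries, and its highest value, in PBS replicate 2, was not shared by the other PBS libraries. Per 1000 of the abundant miR-1 it amounted to between 1.69 and 28.98 where it was above 0.

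The remaining members were near the floor of the table. The sme-miR-133b-3p line was listed at 5.25 in PBS replicate 3 and at 0 in the other libraries, and the ppc-miR-133-3p line at 1.17 in normal exosome replicate 3 and at 0 elsewhere. Neither had a value of 10 or more in any library, so neither was tested. The predicted extension of miR-1, PC-3p-21776_44, stood between 4.89 and 8.82 in 6 libraries and at 0 in the other 3.

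**Figure D2:**
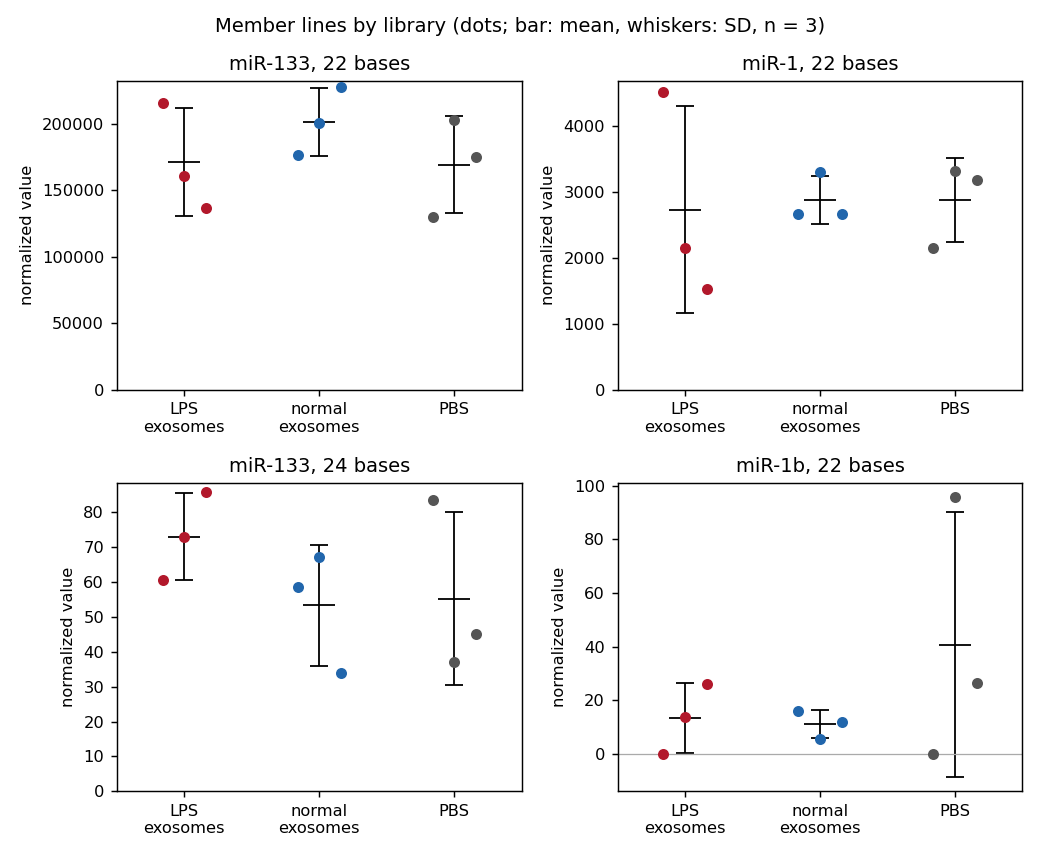
Normalized value of the 4 tested sequences in each library (dots), with the mean and SD of the 3 libraries of each group; each panel has its own vertical scale. In every panel the groups overlap, miR-1 spreads from 1532 to 4507 in the LPS exosome libraries, and 1 PBS library stands at 95.9 for miR-1b.

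In order of level, the 22-base miR-133 came first, then miR-1, then the 24-base miR-133, and miR-1b last. The ranges of the first 3 over the 9 libraries did not touch. The 24-base miR-133 was above miR-1b in 8 of 9 libraries, with PBS replicate 2 as the exception, and the ranges of these 2 overlapped. The 22-base miR-133 exceeded miR-1 by a factor of 66.9 ± 13.7 (SD, n = 9), which ran from 47.9 to 89.1. Together the 7 lines, with the doubled sequence counted once, held 3.74% ± 0.388, 3.53% ± 0.687 and 3.40% ± 0.266 of the summed signal with LPS exosomes, normal exosomes and PBS (SD, n = 3 each). The recovery of a miRNA in small RNA libraries also depends on how well its ends are ligated, so the factor describes these libraries and not molecule numbers in the cells. In such bulk libraries, fewer cells of a type and less RNA per cell cannot be told apart.

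Injection of LPS exosomes set against PBS addresses whether such vesicles go with other miRNA levels in hemocytes. No tested miR-1 or miR-133 line passed in this comparison, and each group overlapped the other for every one of them. Of the 5 member lines tested, holding 4 sequences, none passed limma's test at an adjusted p under 0.05 (Benjamini-Hochberg over 162 tested lines) and none had an unadjusted p under 0.05. Among all 162 lines, 4.32% passed the adjusted threshold and 24.1% the unadjusted one, and 29% had groups that did not overlap. The 22-base miR-133 stood at a log2 fold change of 0.012 ± 0.21 (SE; adjusted p = 0.957 by limma) with LPS exosomes against PBS, with a 95% interval from 0.723-fold to 1.41-fold. The log2 fold change of miR-1 was -0.20 ± 0.36 (SE; adjusted p = 0.796 by limma), with an interval from 0.493-fold to 1.53-fold. For the 24-base miR-133 the log2 fold change was 0.47 ± 0.41 (SE; adjusted p = 0.558 by limma), with an interval from 0.729-fold to 2.63-fold. For miR-1b it was -0.92 ± 1.72 (SE; adjusted p = 0.807 by limma), with an interval from 0.0361-fold to 7.78-fold. The log2 fold change of miR-1b was 0.49 without PBS replicate 2 and 0.52 without LPS exosome replicate 1. The intervals of all 4 sequences include no change, so none settles a direction.

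The median log2 fold change of the 4 member sequences was -0.095, beside -0.057 over all tested lines. Leaving out LPS exosome replicate 1 moved miR-1 to -0.64 and leaving out LPS exosome replicate 3 to 0.14, and neither passed. The 22-base miR-133 was at -0.17 without LPS exosome replicate 1 and also at -0.17 without PBS replicate 1.

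Normal exosomes were set against the same 3 PBS libraries, to ask the same of vesicles without the stimulus. Again 0 of the 5 tested member lines passed, with 0 at an unadjusted p under 0.05, beside 4.32% and 16.7% of all 162 lines. No member had groups that did not overlap, as 25.3% of all lines had. The 22-base miR-133 was at a log2 fold change of 0.27 ± 0.21 (SE; adjusted p = 0.540 by limma) with normal exosomes against PBS, with an interval from 0.863-fold to 1.68-fold. When every library was scaled to the same total this value was 0.044. miR-1 lay at a log2 fold change of 0.015 ± 0.36 (SE; adjusted p = 0.998 by limma) and an interval from 0.573-fold to 1.78-fold, and its sign turned to -0.21 at equal totals and to -0.011 under median-of-ratios scaling. The 24-base miR-133 was at -0.019 ± 0.41 and miR-1b at -0.30 ± 1.72 (SE; adjusted p = 0.998 by limma for each). The signs of these 3 sequences turned when single libraries were left out. miR-1b was at 1.11 without PBS replicate 2, at 0.19 without PBS replicate 3 and at 0.093 without normal exosome replicate 2, and with a pseudocount of 10 it was at -0.71. The 24-base miR-133 was at 0.32 without PBS replicate 1 and at 0.27 without normal exosome replicate 3, and miR-1 at -0.18 without PBS replicate 1 and at -0.088 without normal exosome replicate 2. The median log2 fold change was -0.0020 over the 4 member sequences and -0.0042 over all tested lines.

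LPS exosomes were set against normal exosomes to ask what the stimulus adds. None of the 5 member lines passed here either, with 0 at an unadjusted p under 0.05, beside 4.32% and 16% of all 162 lines. No member had groups that did not overlap here, as 25.3% of all lines had. The 22-base miR-133 reached a log2 fold change of -0.26 ± 0.21 (SE; adjusted p = 0.612 by limma) with an interval from 0.600-fold to 1.17-fold, and miR-1 one of -0.22 ± 0.36 (SE; adjusted p = 0.784 by limma) with an interval from 0.488-fold to 1.52-fold. Both signs turned at equal library totals, to 0.094 and 0.13. The median log2 fold change over all tested lines was -0.15 as deposited and 0.16 at equal totals, and that over the 4 member sequences was -0.24 as deposited. The 24-base miR-133 was at 0.49 ± 0.41 (SE; adjusted p = 0.612 by limma), with an interval from 0.739-fold to 2.67-fold. miR-1b was at -0.62 ± 1.72 (SE; adjusted p = 0.872 by limma), and at 0.82 without LPS exosome replicate 1. Its mean values ran the other way, at 13.2 with LPS exosomes and 11.1 with normal exosomes, and with a pseudocount of 10 its log2 fold change was -0.018. Without LPS exosome replicate 3, miR-1 was at 0.12.

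**Figure D3:**
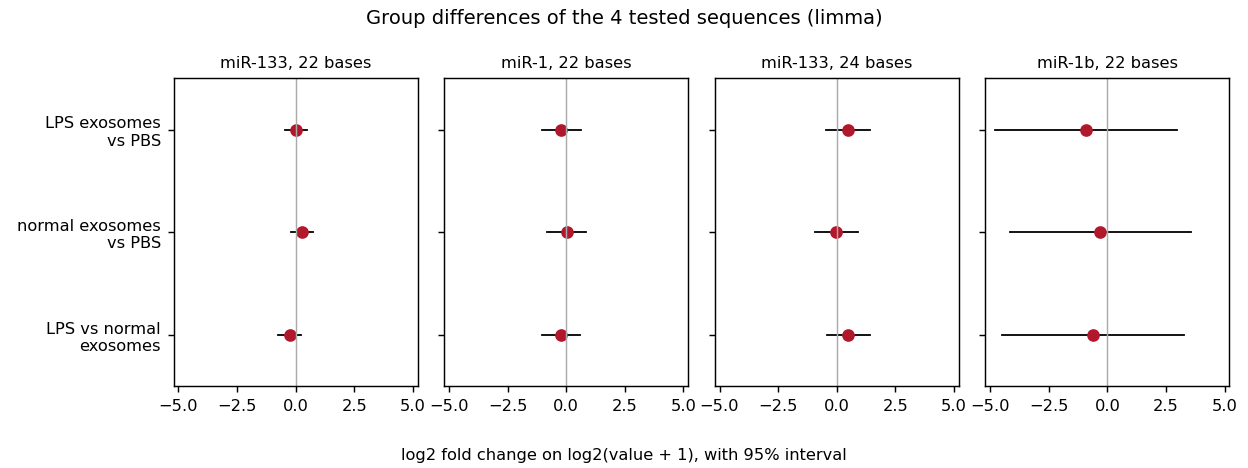
Log2 fold change on the log2(value + 1) scale (points) with 95% intervals from limma (lines), for 4 sequences and 3 comparisons; values to the right of 0 are higher in the group named first. All 12 intervals include 0, and those of miR-1b are the widest.

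Levels of miR-1 relative to miR-133 were also compared within each library, where the scaling of libraries cancels. Per 100 of the 22-base miR-133, miR-1 stood at 2.09, 1.33 and 1.12 in the LPS exosome libraries, at 1.50, 1.64 and 1.17 in the normal exosome libraries, and at 1.64, 1.63 and 1.82 in the PBS libraries. The PBS libraries were close together, and the exosome libraries reached lower, to 1.12 and 1.17, and in 1 case higher. The group means were 1.51 ± 0.508, 1.44 ± 0.242 and 1.70 ± 0.103 with LPS exosomes, normal exosomes and PBS (SD, n = 3 each). The log2 ratio differed by -0.21 between LPS exosomes and PBS, by -0.25 between normal exosomes and PBS, and by 0.038 between LPS and normal exosomes, with two-sided exact permutation p = 0.5, p = 0.2 and p = 1. With 3 libraries against 3 this test cannot go below 0.1. With all lines of each number summed, normal exosomes and PBS differed by -0.26, at that smallest p (exact permutation p = 0.1). The sums differed by -0.22 between LPS exosomes and PBS (exact permutation p = 0.5) and by 0.043 between LPS and normal exosomes. Without summing, LPS and normal exosomes differed by -0.22 without LPS exosome replicate 1 and by -0.10 without normal exosome replicate 3.

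The balance of the miR-133 forms was compared in the same way, a ratio chosen after its values were seen. Per 10000 of the 22-base form, the 24-base form stood at 2.80, 4.53 and 6.27 in the LPS exosome libraries, at 3.31, 3.35 and 1.50 in the normal exosome libraries, and at 6.39, 1.82 and 2.58 in the PBS libraries. The group ranges overlapped and the PBS group alone spanned more than a 3-fold range. The log2 ratio differed by 0.47 between LPS exosomes and PBS, by -0.29 between normal exosomes and PBS, and by 0.75 between LPS and normal exosomes (two-sided exact permutation p = 0.5, p = 0.8 and p = 0.3). Adjusted over the 6 ratio tests, no p was under 0.75. Without PBS replicate 1 the first of these differences was 0.99 and the second 0.23, and without normal exosome replicate 3 the second was 0.099.

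**Figure D4:**
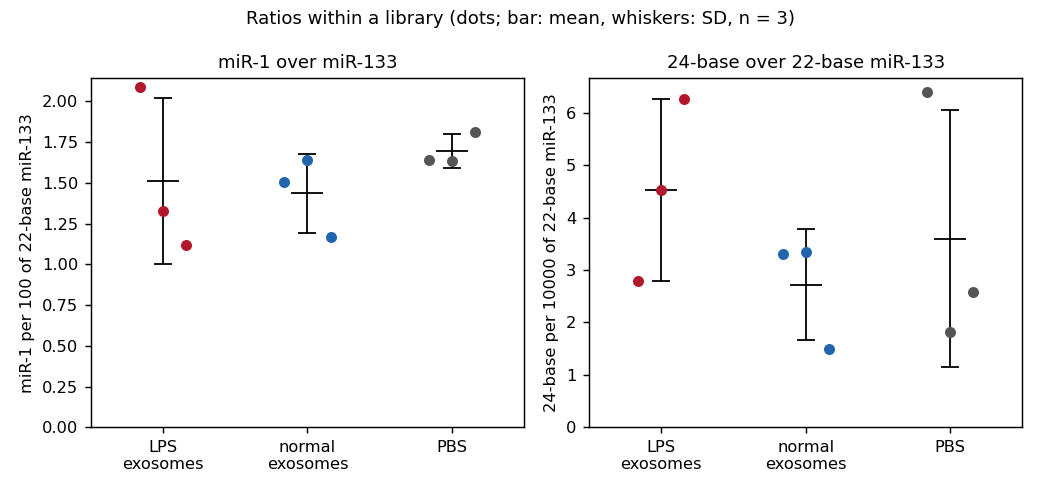
Ratios within a library (dots) with the mean and SD of each group (n = 3): miR-1 per 100 of the 22-base miR-133 on the left, and the 24-base per 10000 of the 22-base miR-133 on the right. The 3 PBS libraries lie between 1.63 and 1.82 on the left, where LPS exosome libraries run from 1.12 to 2.09, and the groups overlap in both panels.

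Across the 9 libraries miR-1 and the 22-base miR-133 varied together on the deposited scale, with Pearson's r = 0.786 (exact permutation p = 0.0113, adjusted over 3 relations p = 0.0315) and Spearman's rho = 0.75 (exact permutation p = 0.0255, adjusted p = 0.0382). The 3 relations were not among the planned tests, so their p-values serve only as description. Without the libraries farthest from the median of miR-133, LPS exosome replicate 3 and PBS replicate 1, r was 0.576. With group means removed r was 0.847. Both lines also followed the total of the library, with r = 0.768 for miR-133 and r = 0.683 for miR-1. At equal totals r was 0.534 (exact permutation p = 0.136, adjusted p = 0.392), so the relation no longer passed.

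The 24-base miR-133 ran against the 22-base form, with r = -0.756 (exact permutation p = 0.0210, adjusted p = 0.0315) and rho = -0.783 (exact permutation p = 0.0172, adjusted p = 0.0382). PBS replicate 1 and LPS exosome replicate 3 had the lowest 22-base and the highest 24-base values, and normal exosome replicate 3 the reverse. Without the first 2 of these libraries, which are the farthest on the 22-base axis, r was -0.524, and with either one left out alone it was -0.698 or -0.688. With group means removed r was -0.836. The 24-base form also ran against the total of the library (r = -0.622), which the 22-base form followed (r = 0.768). At equal totals the r of the 2 forms was -0.314 (exact permutation p = 0.415), so this relation no longer passed either. miR-1b and miR-1 gave r = -0.201 (exact permutation p = 0.606) and rho = -0.0837 (exact permutation p = 0.833). Their r was 0.605 without LPS exosome replicates 1 and 3, the libraries farthest from the median of miR-1. The libraries of all 3 groups were pooled in these relations, since 3 per group are too few for a value of their own, and the labels name no batch.

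**Figure D5:**
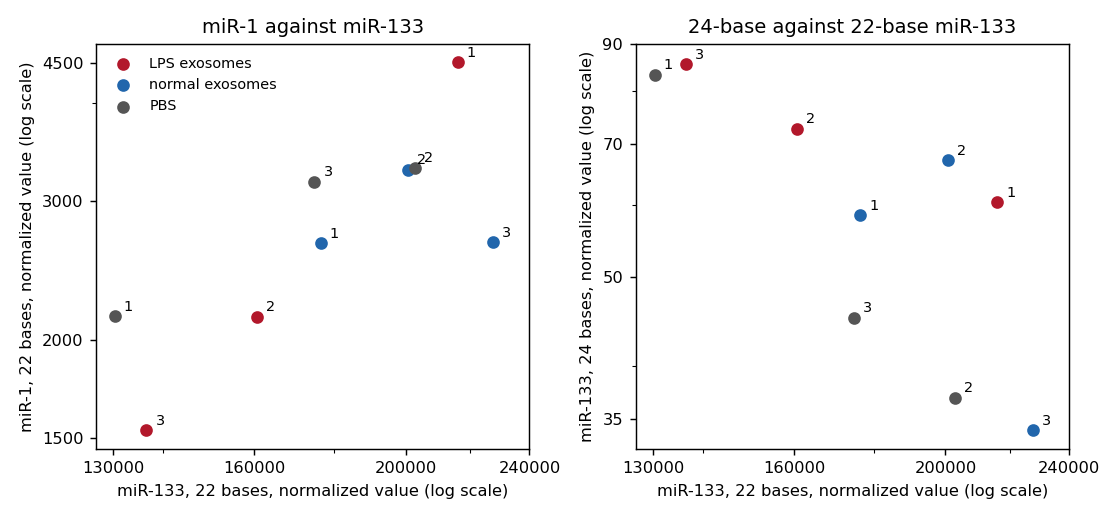
Each point is 1 library, numbered by replicate and coloured by group, on log axes of the normalized value: miR-1 (left) and the 24-base miR-133 (right) against the 22-base miR-133. miR-1 is higher where miR-133 is higher (r = 0.786), and the 24-base form is lower there (r = -0.756), both before scaling to equal totals.

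The lines most like each miRNA in pattern over the 9 libraries were sought among 102 other tested lines with a mean of 50 or more, by Pearson's r of log2 values as a description. For the 22-base miR-133 they were lgi-miR-100 (r = 0.88), the shortened line lgi-miR-100_L-4 (0.84) and mle-miR-184-3p (0.71). For miR-1 they were lgi-miR-100 (0.72), mle-miR-96b-5p_2ss1CA23GA (0.68) and the predicted PC-5p-1_12698927 (0.65). These lines share library totals with the members. Of them PC-5p-1_12698927, mle-miR-184-3p and lgi-miR-100 ranked 1, 2 and 3 by mean value and so make up much of those totals. At equal totals lgi-miR-100 and its shortened line still came first and second for miR-133 (r = 0.65 and 0.62), and the miR-96b line came first for miR-1 (0.61), but for miR-1 lgi-miR-100 was then at place 6 (0.44) and PC-5p-1_12698927 at place 19, and for miR-133 mle-miR-184-3p was at place 50.

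Other miRNAs known from vertebrate muscle (miR-22, miR-26, miR-27, miR-29, miR-181, miR-214, miR-378 and miR-486) were far lower than miR-133. Of their 14 lines 7, holding 6 sequences, were tested, and 0 passed in any of the 3 comparisons. Their median log2 fold changes were -0.73 for LPS exosomes against PBS, 0.63 for normal exosomes against PBS and -1.41 for LPS against normal exosomes, beside -0.057, -0.0042 and -0.15 over all tested lines. The most abundant, mle-miR-29a-3p, ran from 57.3 to 144.2. The next, aca-miR-27b-3p_R-1, ran from 5.10 in LPS exosome replicate 1 to 233.6 in normal exosome replicate 2, and the line aca-miR-26-5p_R+2, identical in sequence to dre-miR-26a-5p, from 6.29 to 178.0. Summed over distinct sequences, the list had 128.2 to 185.3 in the LPS exosome libraries, 119.5 to 672.3 in the normal exosome libraries and 97.9 to 270.2 in the PBS libraries, highest in normal exosome replicate 2. In that library miR-133, miR-1 and the 24-base miR-133 lay inside the range of the other libraries, and miR-1b, at 5.56, was at its lowest value above 0.

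The lists for other cell types were summed in the same way. Each of these sums rested mainly on 1 line, given here by mean over the 9 libraries. In the neural list this was lgi-miR-7 at 552.9, and the next line was mle-miR-9-5p at 1.07. In the epithelial and sensory list mle-miR-96a-5p_1ss19GC had 95518 and the next, mle-miR-263a-5p, 369.1. In the gut and endocrine list mle-miR-216b-5p had 462.2 and the next, mle-miR-375-3p, 113.3. The neural list (miR-7, miR-9, miR-124 and miR-219) had 401.2 to 832.4 in the LPS exosome libraries, 206.9 to 727.5 in the normal exosome libraries and 500.7 to 607.7 in the PBS libraries, with 0 of 1 tested lines called. The epithelial and sensory list (miR-8, miR-96, miR-141, miR-182, miR-183, miR-200 and miR-263) had 80050 to 99420 in the LPS exosome libraries, 74500 to 112400 in the normal exosome libraries and 99170 to 111500 in the PBS libraries. Its 6 tested lines had a median log2 fold change of -0.23 for LPS exosomes against PBS, -0.55 for normal exosomes against PBS and 0.74 for LPS against normal exosomes, with 1 of 6 tested lines higher with LPS exosomes in the PBS comparison, where 3.09% of all 162 lines were higher, and 1 of 6 in that with normal exosomes, where 3.7% were. The gut and endocrine list (miR-192, miR-194, miR-215, miR-216, miR-217 and miR-375) had 752.6 to 930.5 in the LPS exosome libraries, 418.7 to 678.0 in the normal exosome libraries and 489.6 to 665.0 in the PBS libraries, so that every LPS exosome library lay above all the others. Among all 162 single lines, 29% had LPS exosome and PBS groups that did not overlap, in either direction, and 25.3% had such LPS and normal exosome groups. Of its 4 tested lines 1 was higher with LPS against normal exosomes, where 3.7% of all 162 lines were higher, and 0 were called otherwise. Their median log2 fold changes ran the other way, at -1.16 for LPS against normal exosomes and -0.24 for LPS exosomes against PBS, beside 0.42 for normal exosomes against PBS. The vertebrate blood and liver list (miR-122, miR-142, miR-144, miR-223 and miR-451) had 29.1 to 157.5, 62.2 to 526.9 and 21.6 to 123.5 in the LPS exosome, normal exosome and PBS libraries, with 0 of 1 called. Its 2 lines were both named miR-122, with means of 141.9 (aca-miR-122-5p_R+1) and 0.36 (hsa-miR-122-5p_R-3), and no line bore its other numbers. These values are thus those of miR-122 alone. The part of other cell types in the miR-1 and miR-133 values was not tested.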

How the data were processed

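Small RNA of scallop hemocytes was sequenced on an Illumina HiSeq from TruSeq libraries, and ACGT101-miR removed adapter dimers, junk, common RNA families and repeats, per the labels' protocols. The deposited values are a signal that the file headers call normalized counts. How they were normalized, the aligner, the genome build and the release of miRBase were not given in the sources used here. Values of each library were whole multiples of 1 step for 99.55% of 1990 values above 0 (tolerance 0.01 steps), with totals of 7063405 to 15676183 steps and a lowest whole value of 5 steps, so a 0 can hide a few reads. Whether 1 step is 1 read is not settled, so depth is unknown and no counting intervals are given. All 9 value columns were matched to samples by title.

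limma 3.58.1 in R 4.3.3, with its trend and robust options and statmod 1.5.0, was fitted to log2(value + 1) in 1 model of 3 group means, with 6 residual degrees of freedom. It took the 162 lines that reached 10 in 3 or more libraries, with Benjamini-Hochberg adjustment over them. Fold changes on this scale can understate changes of low lines, but with listed 0 values they also depend on the pseudocount. With a pseudocount of 10, miR-1b moved from -0.92 to -0.73 for LPS exosomes against PBS. It moved from -0.30 to -0.71 for normal exosomes against PBS and from -0.62 to -0.018 for LPS against normal exosomes. The fit was also run on simulated data with known changes, and how often it recovered them is not given here. Ratios and correlations used exact permutation tests (Python 3.11.15, numpy 2.4.6). Named lines were all members, lines sharing a seed or containing a member's sequence, the 3 lines most correlated with miR-1 and with miR-133, and other muscle-associated miRNAs. Members and lists were chosen with earlier results of these data known. Alternatives covered scaling, filter, pseudocount, limma settings, replicate block, 2-group fits, shared sequences and each library left out. For the ratio of miR-1 to miR-133 they also covered the sum of all lines of each number.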

Additional observations from a re-analysis of the deposited data

How the results depend on the processing

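No member line was called in any comparison under any alternative run: the count stayed at 0, and over 213 refits of the 12 member fold changes the lowest limma adjusted p was 0.253. Of these refits 108 gave back the reported estimate within 0.0001, nearly all because the alternative changes only the error or leaves out a library of the group not compared, so they say nothing of the sign. Of the 105 that moved the estimate, 87 kept its sign and 18 reversed it, and the cause was not tested. With every library scaled to the same total, miR-1 reversed to -0.21 (normal exosomes vs PBS) and 0.13 (LPS vs normal exosomes), and the 22-base miR-133 to 0.094 (LPS vs normal exosomes). Median-of-ratios scaling took miR-1 to -0.011 in normal exosomes vs PBS.

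When each library was left out in turn, the log2 fold change of miR-1 ran from -0.64 to 0.14 (LPS exosomes vs PBS), from -0.18 to 0.13 (normal exosomes vs PBS) and from -0.66 to 0.12 (LPS vs normal exosomes). The 22-base miR-133 ran from -0.17 to 0.16, from 0.090 to 0.41 and from -0.44 to -0.11 in the same order, the 24-base form from 0.23 to 0.81, from -0.26 to 0.32 and from 0.20 to 0.68, and miR-1b from -2.81 to 0.52, from -2.19 to 1.11 and from -1.56 to 0.82. The log2 ratio of miR-1 to miR-133 ran from -0.47 to -0.024, from -0.35 to -0.11 and from -0.22 to 0.23, and that of the 24-base to the 22-base form from 0.081 to 0.99, from -0.67 to 0.23 and from 0.37 to 1.06. The correlation of miR-1b with miR-1 ran from -0.461 to 0.233, that of miR-1 with miR-133 from 0.699 to 0.902, and that of the miR-133 forms from -0.837 to -0.671. The correlations at equal totals, an alternative chosen after seeing the data, as were all those of the correlations and of the ratio of miR-133 forms, were 0.534 for miR-1 with miR-133 and -0.314 for the miR-133 forms.

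The members held 3.55% of the signal on average, and 6.24% when the most abundant line was taken out of the total. Counts over all 162 lines, 7 in each comparison, moved with the alternatives. For LPS exosomes vs PBS the count was 4 at a mean of 50 or more, 3 with those groups alone and 1 to 12 with a library left out. For normal exosomes vs PBS it was 12 at equal totals, 4 without a filter, 3 at a mean of 50 or more and 2 to 8 with a library left out. For LPS vs normal exosomes it was 2 without trend and robust settings and 3 to 10 with a library left out.

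Deviations of same-numbered libraries from their group means gave r from 0.0020 to 0.221 (LPS exosomes and PBS) and from 0.0827 to 0.291 (normal exosomes and PBS). For the exosome groups r ran from -0.303 to -0.0032. Differently numbered libraries gave r from -0.345 to 0.32, from -0.291 to 0.125 and from -0.132 to 0.365 in the same order. With 3 libraries per group these values cannot show whether the number marks a pairing. With the replicate number as a block, 7, 3 and 8 of all lines were called in the 3 comparisons and 0 member lines, and the miR-1 to miR-133 log2 ratio differed by -0.21, -0.25 and 0.038 (exact sign-flip p = 0.75, p = 0.5 and p = 1, where 0.25 is the smallest possible). The 2 planned count tests were not run, because the values could not be taken as whole reads. miR-1b could not be fitted at a mean of 50 or more.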

Other observations

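The steps of the values differed between member lines. The mle-miR-1, mle-miR-133, aca-miR-1b and sme-miR-133b lines took only even numbers of steps in every library where they were above 0, as did 115 of the 162 tested lines. The 24-base miR-133 took odd numbers too, and was listed at a fractional step in 1 library, normal exosome replicate 3, as was ppc-miR-133. Fractional steps occurred in 5 of the 162 tested lines. What makes a step whole, even or fractional was not tested, and levels set between the 22-base and the 24-base miR-133 rest on the values as deposited.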
